A study of Rattus norvegicus with 11 samples.

Results

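The genes described here are 9 genes of zinc handling, the metallothioneins Mt1 and Mt2A, the zinc-sensing transcription factor Mtf1, the zinc importers Slc39a4, Slc39a5 and Slc39a14, and the exporters Slc30a1, Slc30a2 and Slc30a10. They were taken by symbol from the deposited tables, and all 9 had a row among the 24481 genes listed. RNA sequencing was carried out on the ileum of male SD rats aged 6 to 8 weeks, with 3 control, 4 SAP and 4 JZL184 libraries. Severe acute pancreatitis (SAP) was produced by injecting 3% sodium taurocholate into the pancreatic duct, and the rats were grouped 24 h after surgery. The JZL184 group then received 10 mg/kg of JZL184, an inhibitor of the 2-arachidonoylglycerol-degrading enzyme monoacylglycerol lipase, intraperitoneally, while the control and SAP groups received the saline, ethanol and Tween-80 vehicle, and the ileum was collected after 24 h. The sources used here do not state which operation the control rats had, and the labels call the control treatment a control plasmid. The SAP libraries are titled oil in the labels, which the protocol does not mention. No rats without SAP received JZL184, so the JZL184 group differs from the control group in both the pancreatitis and the inhibitor.

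Zinc enters the absorptive cell of the gut through importers of the Slc39 (ZIP) family and leaves it through exporters of the Slc30 (ZnT) family. Metallothioneins are small cysteine-rich proteins that bind zinc and copper inside the cell. When free zinc rises, the zinc finger protein MTF1 binds metal response elements in the promoters of the metallothionein genes and of Slc30a1 and raises their transcription, and glucocorticoids and IL-6 also induce metallothioneins.

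Mt1 and Mt2A are neighbouring genes on chromosome 19 in the RefSeq annotation, followed in order by Mt3 and Mt4. The 250 bases before their transcription starts are shown because the metal response elements of metallothionein genes lie there. The strand shown is that of the gene (minus strand of GRCr8, RefSeq), at chr19:10832976-10833225 for Mt1 and chr19:10838709-10838958 for Mt2A, whereas the reads were counted on the earlier build mRatBN7.2. Capitals mark each match to the core of the metal response element, searched on both strands as TGCACNC or TGCGCNC, where a match on the opposite strand appears as its reverse complement.
Mt1: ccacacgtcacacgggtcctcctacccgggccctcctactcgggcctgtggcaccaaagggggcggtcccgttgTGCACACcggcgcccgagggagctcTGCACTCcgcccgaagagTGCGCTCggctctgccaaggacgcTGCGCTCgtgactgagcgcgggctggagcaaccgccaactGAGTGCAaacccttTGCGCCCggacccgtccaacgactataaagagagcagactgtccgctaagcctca
Mt2A: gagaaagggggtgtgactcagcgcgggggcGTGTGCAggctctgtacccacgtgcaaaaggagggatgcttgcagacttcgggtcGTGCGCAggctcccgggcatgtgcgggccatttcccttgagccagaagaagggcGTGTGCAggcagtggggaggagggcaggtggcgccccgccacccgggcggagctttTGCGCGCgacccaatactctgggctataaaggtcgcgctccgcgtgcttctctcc
The Mt1 window held 6 matches, of which 5 lay on the strand of the gene. The Mt2A window held 4 matches, of which 3 lay on the opposite strand. Of the 33469 promoter windows of this length in the RefSeq table, 20.6% held 1 or more matches, 0.266% held 4 or more and 0.0269% held 6 or more. Promoter entries were found for 6 of the 9 genes. Mtf1 and Slc30a1 each had 2 matches and Slc39a5 had 0, while 1 of the Slc30a2 starts had 2 and the other had 0. Slc39a4, Slc39a14 and Slc30a10 had no entry. Windows with 2 or more matches made up 4.9% of all. A match is a description of the letters in the window and says nothing of binding.

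**Figure D1:**
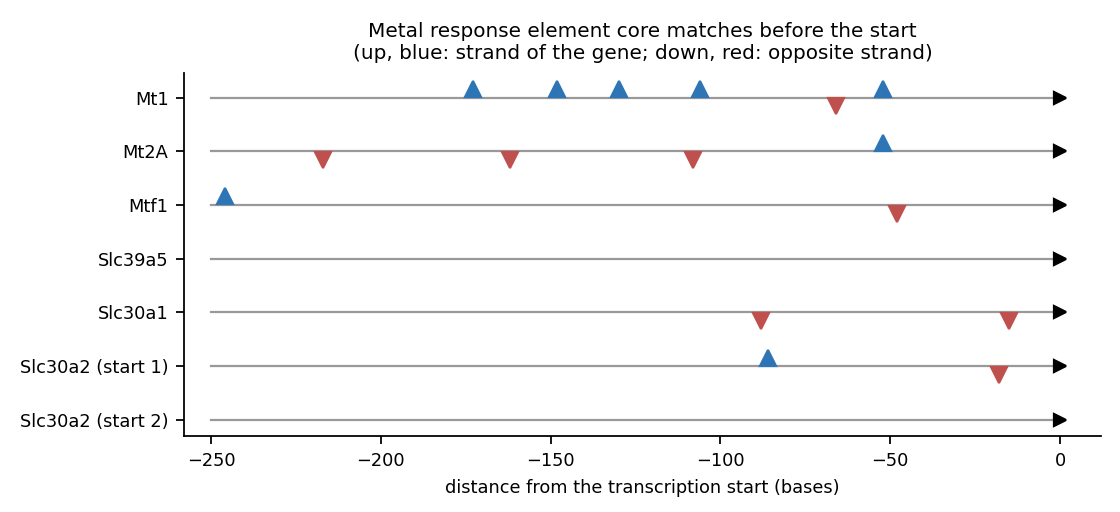
Positions of the metal response element core matches in the 250 bases before each transcription start, for the genes with a promoter entry (x axis, distance from the start in bases; arrowheads on the right, the start). Upward triangles are matches on the strand of the gene and downward triangles on the opposite strand. The 6 matches of Mt1 lay from -176 to -49 and the 4 of Mt2A from -220 to -49.

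Each library held between 26341299 and 33847135 reads assigned to genes. Control libraries 1 and 2 were far closer to each other than any other pair within a group, with a chi-square per gene of 2.81 against 77.48 to 563.03. Counting noise alone gives about 1, so they differed by more than that noise, and as the closest pair they were summed to 1 sample, so that n was 2 in control, 4 in SAP and 4 in JZL184. SAP libraries 1 and 2 stood apart from SAP libraries 3 and 4. SAP library 2 had 20 reads of Y-linked genes and 7826 reads of Xist, whereas the other libraries had 1222 to 4665 and at most 56, although the study used male rats. The libraries carried enterocyte markers at a summed level of 3680 to 14420 FPKM (fragments per kilobase of gene, scaled to the mapped reads of the library), smooth muscle markers at 366.7 to 2115 FPKM and exocrine pancreas markers at 0 to 0.36 FPKM. Neutrophil markers were at a summed level of 2.18 to 2.95 FPKM in control, 10.07 to 87.26 FPKM in SAP and 15.78 to 249.4 FPKM in JZL184. The value of 249.4 FPKM was that of JZL184 library 2. For JZL184 against SAP, 2 of the 5 markers tested had a higher and 3 a lower estimate, with a median log2 fold change of -0.77. The part of neutrophil RNA in the results was not tested. The labels call the cells intestinal epithelial cells, while the source is given as ileum. In these bulk samples fewer cells of a type and less RNA per cell cannot be told apart.

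Of the 9 genes, Mt2A had the largest fold change in each of the 3 comparisons, and its neighbour Mt1 differed from it in SAP. The mean level of Mt2A was 8.62 FPKM in control, 45.5 FPKM in SAP and 371 FPKM in JZL184. Mt1 was already at 217 FPKM in control, lay below control in 3 of the 4 SAP libraries and had its highest mean in JZL184. The levels of Slc39a14 in SAP and in JZL184 also lay above control. Mt2A and Slc39a14 passed the test between JZL184 and control, as did 2.16% of all genes tested. No gene of the 9 passed it in the comparisons of SAP with control or of JZL184 with SAP. In both of these, 0.0% of all genes tested passed, so the lack of calls is not particular to the 9. In the text a gene is said to pass, or to be called, when its edgeR p-value adjusted over all genes (Benjamini-Hochberg) was below 0.05 and its fold change was above 2 or below 0.5.

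**Figure D2:**
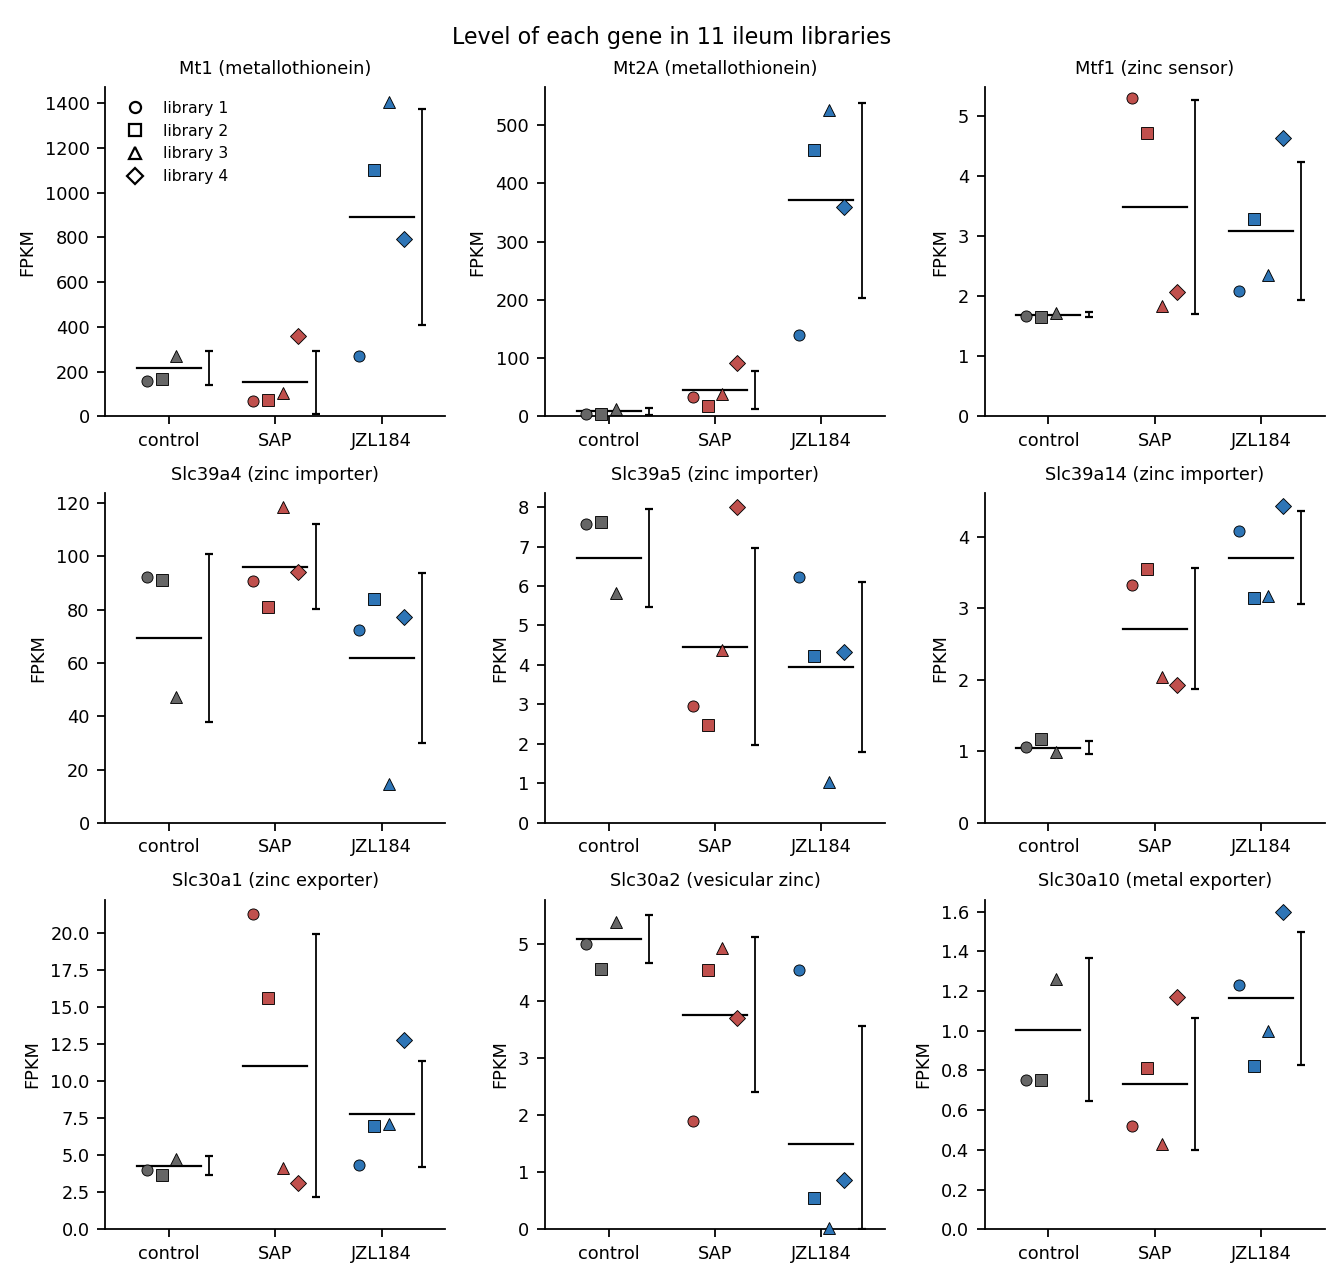
FPKM (y axes, linear) of the 9 genes in the control (grey), SAP (red) and JZL184 (blue) libraries, with a marker shape for each library number. Horizontal lines are group means and bars to the right ± SD (control libraries 1 and 2 averaged to 1 sample; bars end at 0 where the SD exceeds the mean); Mt2A was at 4.06 to 12.87 FPKM in control and 140.41 to 525.8 FPKM in JZL184.

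Mt2A encodes the second of the widely expressed metallothioneins. Its level was 4.67, 4.06 and 12.87 FPKM in control libraries 1 to 3. It was 33.27, 18.64, 38.4 and 91.86 FPKM in SAP libraries 1 to 4, and 140.41, 456.49, 525.8 and 359.67 FPKM in JZL184 libraries 1 to 4. Every SAP library lay above every control library, and every JZL184 library lay above every SAP library. The group means were 8.62 ± 6.01 FPKM (SD, n = 2) in control, 45.5 ± 32.0 FPKM (n = 4) in SAP and 371 ± 168 FPKM (n = 4) in JZL184. Its read counts, the basis of the test, were 48 to 158 in control, 236 to 1161 in SAP and 1853 to 6114 in JZL184. Against control the log2 fold change in JZL184 was 5.45 ± 0.77 (SE), a 43.6-fold difference, with an edgeR adjusted p of 0.0196. In the exact permutation test on FPKM the p was 0.0667, which is the smallest that 4 samples against 2 can give. Between JZL184 and SAP the log2 fold change was 3.14 ± 0.61, or 8.82-fold, with an edgeR adjusted p of 0.0851, and between SAP and control it was 2.33 ± 0.80 with an adjusted p of 0.459. The exact permutation p between JZL184 and SAP was 0.0286, the smallest that 4 against 4 allow. DESeq2, the tool of the study, put the adjusted p at 2.1e-05 for JZL184 against SAP. For SAP against control DESeq2 gave 0.07 with control libraries 1 and 2 summed. With the controls kept separate it gave 0.00233 and called Mt2A. Without SAP libraries 1 and 2 the edgeR log2 fold change was 2.92 for SAP against control and 2.56 for JZL184 against SAP, and without SAP library 2 alone it was 2.61 and 2.86. The gene is short, at percentile 1.37 of gene length. With each library's trend on gene length removed these estimates were 2.74 and 3.12, the latter with an edgeR adjusted p of 0.047.

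Mt1 encodes the other of the widely expressed metallothioneins. Its level was 158.77, 166.65 and 270.75 FPKM in control. It was 68.88, 74.27, 105.46 and 360.92 FPKM in SAP and 269.47, 1099.13, 1402.68 and 791.78 FPKM in JZL184. SAP libraries 1, 2 and 3 lay below every control library and SAP library 4 above them, and JZL184 library 1 lay within the range of the SAP and control libraries. The group means were 217 ± 76.4 FPKM (SD, n = 2), 152 ± 140.0 FPKM (n = 4) and 891 ± 484 FPKM (n = 4) in control, SAP and JZL184. Between JZL184 and SAP the log2 fold change was 2.64 ± 0.71 (SE), or 6.25-fold, with an edgeR adjusted p of 0.109 and an exact permutation p of 0.0571. Between JZL184 and control it was 2.03 ± 0.64, or 4.09-fold, with an adjusted p of 0.102. DESeq2 called both differences, with adjusted p of 0.003 and 0.00793. Without JZL184 library 1, edgeR called them too, with adjusted p of 0.0477 and 0.0147, and with control libraries 1 and 2 kept separate it called the second, with an adjusted p of 0.0215. SAP and control did not differ beyond their spread for Mt1, with a log2 fold change of -0.59 ± 0.74 and an edgeR adjusted p of 0.683, and the estimate was 0.09 without SAP libraries 1 and 2 and -1.58 (adjusted p of 0.193) without SAP library 4. On replicates 1 to 3 of both groups, with the controls separate, it was -1.46 (adjusted p of 0.0523). The gene is short, at percentile 1.43 of gene length, and with each library's trend on gene length removed the estimate was -0.24. Without SAP libraries 1 and 2 the log2 fold change between JZL184 and SAP was 1.97, with an adjusted p of 0.26.

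The proportion of the 2 metallothioneins was also compared, a choice made after the values were seen. The ratio of Mt2A to Mt1 in FPKM was 0.0294, 0.0244 and 0.0475 in control libraries 1 to 3. It was 0.483, 0.251, 0.364 and 0.255 in SAP and 0.521, 0.415, 0.375 and 0.454 in JZL184. The SAP and JZL184 libraries overlapped, and both groups lay wholly above control. The mean ratio was 0.0372 ± 0.0146 (SD, n = 2) in control, 0.338 ± 0.110 (n = 4) in SAP and 0.441 ± 0.0622 (n = 4) in JZL184. It was 9.10 times higher in SAP and 11.9 times higher in JZL184 than in control, with an exact permutation p of 0.0667 for each, the smallest possible. JZL184 and SAP differed in the ratio by 1.31 times with an exact p of 0.171.

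A further row, Mt1m on chromosome 20, followed Mt2A closely. RefSeq lists Mt1m of the rat as a pseudogene. Its level was 2.31 to 6.59 FPKM in control, 13.41 to 45.18 FPKM in SAP and 73.36 to 330.5 FPKM in JZL184, without overlap between the groups. The ratio of Mt1m to Mt2A stayed between 0.447 and 0.719 in the 11 libraries, while Mt2A itself spanned 130 times from its lowest to its highest library. The log2 fold change of Mt1m between JZL184 and control was 5.57 ± 0.78 (SE) with an edgeR adjusted p of 0.0194. According to the study's methods uniquely aligned reads were counted, so reads that fit several metallothionein copies would be missing from all of them. Whether reads of Mt2A were assigned to Mt1m was not tested, and the levels of both rows are uncertain to that extent. Summed over Mt1, Mt2A and Mt1m, the libraries held 165.8 to 290.21 FPKM in control, 106.32 to 497.96 FPKM in SAP and 483.24 to 2259 FPKM in JZL184.

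**Figure D3:**
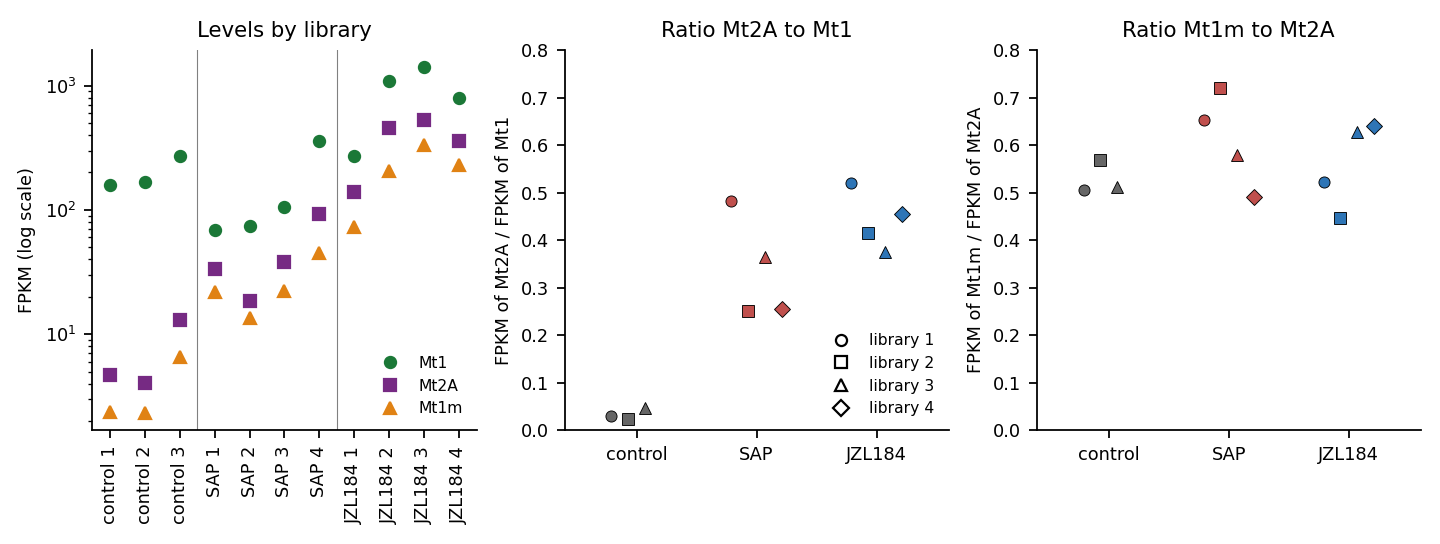
Left, FPKM (log axis) of Mt1, Mt2A and Mt1m in each library. Middle and right, the ratio of Mt2A to Mt1 and of Mt1m to Mt2A by group (grey, control; red, SAP; blue, JZL184; a marker shape for each library number); the first ratio was at most 0.0475 in control and at least 0.251 in the SAP and JZL184 libraries, and the second stayed between 0.447 and 0.719.

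Mtf1, the transcription factor that senses zinc, was measured at low levels. It was at 1.67, 1.66 and 1.72 FPKM in control, at 5.3, 4.72, 1.84 and 2.07 FPKM in SAP and at 2.08, 3.28, 2.36 and 4.63 FPKM in JZL184. All SAP and JZL184 libraries lay above the control libraries, and SAP libraries 1 and 2 were high while SAP libraries 3 and 4 lay close to control. The log2 fold change was 0.84 ± 0.47 (SE) for SAP against control and 0.86 ± 0.41 for JZL184 against control, with edgeR adjusted p of 0.461 and 0.223. Without SAP libraries 1 and 2 the first of these was 0.15. The gene is long, at percentile 91.6 of gene length, and with each library's trend on gene length removed that estimate was 0.23. For JZL184 against SAP the log2 fold change was 0.06 ± 0.40.

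Slc30a1 encodes ZnT1, the exporter at the basolateral membrane of the enterocyte and a known target of MTF1. Its level was 4.03, 3.67 and 4.76 FPKM in control, 21.31, 15.66, 4.11 and 3.13 FPKM in SAP and 4.31, 7.0, 7.08 and 12.82 FPKM in JZL184. As for Mtf1, SAP libraries 1 and 2 were the highest of all, SAP libraries 3 and 4 lay near control, and JZL184 library 4 was the highest of its group. The log2 fold change was 1.14 ± 0.75 (SE) for SAP against control, with an edgeR adjusted p of 0.48, and it was -0.32 without SAP libraries 1 and 2. It was 0.85 ± 0.45 for JZL184 against control and -0.25 ± 0.57 for JZL184 against SAP, with adjusted p of 0.271 and 0.815, and the last was 1.18 without SAP libraries 1 and 2. SAP libraries 1 and 2, where Mtf1 and Slc30a1 were highest, held Mt1 at its lowest levels. The activity of MTF1 was not measured, and its part in these levels was not tested.

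Slc39a14 encodes ZIP14, an importer of zinc, iron and manganese that is known as an IL-6-induced gene of the acute phase in liver. Its level was 1.06, 1.17 and 0.99 FPKM in control, 3.32, 3.55, 2.04 and 1.93 FPKM in SAP and 4.08, 3.14, 3.17 and 4.43 FPKM in JZL184. The SAP and JZL184 libraries all lay above control and overlapped with each other. The means were 1.05 ± 0.088 FPKM (SD, n = 2) in control, 2.71 ± 0.844 FPKM (n = 4) in SAP and 3.71 ± 0.651 FPKM (n = 4) in JZL184. Between JZL184 and control the log2 fold change was 1.78 ± 0.30 (SE), or 3.43-fold, and passed with an edgeR adjusted p of 0.0327. The exact permutation p was 0.0667, the smallest possible. It was 1.17 ± 0.35 for SAP against control and 0.64 ± 0.26 for JZL184 against SAP, with adjusted p of 0.459 and 0.2. At percentile 91.4 of gene length the gene is also long, and with the length trend removed the estimates were 0.63 for SAP and 1.50 for JZL184 against control, the latter with an edgeR adjusted p of 0.0499. Without SAP libraries 1 and 2 the estimate for SAP against control was 0.84, and without SAP library 2 alone it was 1.06.

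The calls between JZL184 and control did not hold when some single samples were left out. Without JZL184 library 2, Mt2A had an edgeR adjusted p of 0.0603 and Slc39a14 of 0.0781. Calls over all genes fell from 343 to 25 in that fit. Without JZL184 library 4 the adjusted p were 0.0447 and 0.0803, and 78 genes were called in all. Without JZL184 library 1 they were 0.00798 and 0.0186, and without JZL184 library 3 they were 0.00686 and 0.0141. Leaving out either control sample leaves 1 control, assumed to vary as the JZL184 libraries do, and calls over all genes then fell from 343 to 0 or 1. In those fits Mt2A had adjusted p of 0.149 and 0.35 and Slc39a14 of 0.195 and 0.395, a loss shared with nearly all called genes. With control libraries 1 and 2 kept separate the adjusted p were 0.00216 for Mt2A and 0.00373 for Slc39a14. The log2 fold change of Mt2A remained between 4.88 and 6.32 and that of Slc39a14 between 1.50 and 1.93 over the 16 alternatives run for each.

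Slc39a4 encodes ZIP4, the importer at the apical membrane of the enterocyte that takes up dietary zinc, and it had the highest level of the transporters described here. It was at 92.06, 90.96 and 47.02 FPKM in control, at 90.78, 81.05, 118.39 and 93.92 FPKM in SAP and at 72.19, 83.81, 14.46 and 77.13 FPKM in JZL184. JZL184 library 3 was far below the rest of its group, control library 3 was lower than the other two, and the groups overlapped in all 3 comparisons. The log2 fold changes were 0.29 ± 0.38 (SE) for SAP against control, -0.45 ± 0.49 for JZL184 against SAP and -0.18 ± 0.65 for JZL184 against control, with edgeR adjusted p of 0.703, 0.597 and 0.882. In the same JZL184 library 3 the summed level of 8 enterocyte markers was 3680 FPKM, against 10170 to 13350 FPKM in the other JZL184 libraries. SAP libraries 1 and 2, with 4515 and 5013 FPKM of these markers, held Slc39a4 near the level of control libraries 1 and 2. The part of enterocyte RNA in the level of Slc39a4 was not tested.

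Slc39a5 encodes ZIP5, an importer at the basolateral membrane of the enterocyte. It was at 7.56, 7.61 and 5.83 FPKM in control, at 2.96, 2.49, 4.38 and 8.0 FPKM in SAP and at 6.24, 4.22, 1.03 and 4.33 FPKM in JZL184. SAP library 4 was the highest of all and JZL184 library 3 the lowest, and the groups overlapped. The log2 fold changes of -0.72 ± 0.54 (SE) for SAP and -0.79 ± 0.57 for JZL184 against control had edgeR adjusted p of 0.513 and 0.403, and JZL184 against SAP stood at -0.06 ± 0.57.

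Slc30a2 encodes ZnT2, which loads zinc into secretory vesicles and, in the gut, into the granules of Paneth cells. It was at 5.01, 4.56 and 5.38 FPKM in control and at 1.89, 4.54, 4.93 and 3.7 FPKM in SAP. In JZL184 it was at 4.55 FPKM in library 1 and at 0.54, 0.02 and 0.87 FPKM in libraries 2, 3 and 4. Libraries 2, 3 and 4 of JZL184 lay below every other library, with 51, 2 and 79 reads against 222 to 543 elsewhere outside JZL184, whereas JZL184 library 1 lay at the level of SAP. The log2 fold change was -1.84 ± 1.16 (SE) for JZL184 against control and -1.24 ± 0.97 for JZL184 against SAP, with edgeR adjusted p of 0.338 and 0.457. Without JZL184 library 1 these were -3.37 and -2.74, with adjusted p of 0.0579 and 0.107. For JZL184 against control limma-voom with sample quality weights, under which the libraries do not count equally, gave -3.21. It called Slc30a2, with an adjusted p of 0.0414. The summed level of 8 measured Paneth cell markers was 13980 to 14800 FPKM in control, 4621 to 19330 FPKM in SAP and 7926, 6823, 849.7 and 11250 FPKM in JZL184 libraries 1 to 4. JZL184 library 3 was lowest for both. JZL184 library 4 held more of these markers than JZL184 library 1 and less Slc30a2. Of the 6 Paneth markers tested, 6 had a lower estimate in JZL184 than in SAP, with a median log2 fold change of -0.76, and 0 were called by edgeR or DESeq2 or had an unadjusted p below 0.05. The part of Paneth cell RNA in the level of Slc30a2 was not tested.

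Slc30a10 encodes an exporter known chiefly for manganese. It was at 0.75, 0.75 and 1.26 FPKM in control, at 0.52, 0.81, 0.43 and 1.17 FPKM in SAP and at 1.23, 0.82, 1.0 and 1.6 FPKM in JZL184, below 2 FPKM in every library. The groups overlapped, and the log2 fold changes were -0.58 ± 0.49 (SE), 0.79 ± 0.39 and 0.19 ± 0.36 for SAP against control, JZL184 against SAP and JZL184 against control, with edgeR adjusted p of 0.555, 0.268 and 0.775.

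**Figure D4:**
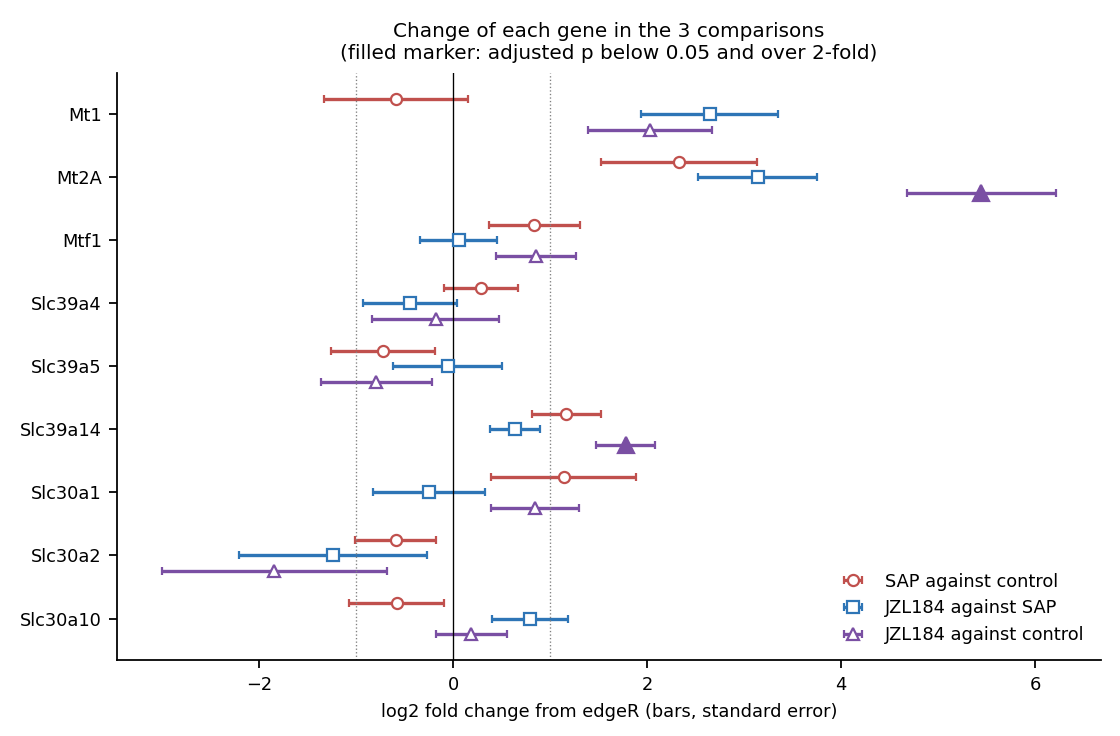
Log2 fold change (x axis; bars, standard error from edgeR) of the 9 genes for SAP against control, JZL184 against SAP and JZL184 against control; filled markers passed the test and dotted lines mark 2-fold. The filled markers are Mt2A at 5.45 and Slc39a14 at 1.78, both for JZL184 against control; the comparisons share their samples in pairs.

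The counts over the 9 genes stood against the following background of all genes tested. For SAP against control edgeR called 0 of the 9 genes and 0.0% of all 16029. At an unadjusted p below 0.05 the count was 2, against 9.09% of all, the groups did not overlap in FPKM for 3, against 22.0%, and DESeq2 called 0, against 1.23%. For JZL184 against SAP edgeR called 0 of the 9 and 0.0% of all 15308. The count was 3 at an unadjusted p below 0.05, against 21.3% of all, 1 for groups without overlap, against 11.2%, and 2 by DESeq2, against 6.98%. For JZL184 against control edgeR called 2 of the 9 and 2.16% of all 15916. Here the count was 3 at an unadjusted p below 0.05, against 26.3%, 4 for groups without overlap, against 36.6%, and 3 by DESeq2, against 10.8%. Groups without overlap were common among all genes, so that a lack of overlap by itself sets none of the 9 apart. Each pair of comparisons shares a group of samples, so these counts are not independent of each other.

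Of the other zinc transporters and metallothioneins, 21 were listed, 20 had a row and 16 or 17 were tested in each comparison. By edgeR 0 were called for SAP against control (2 at an unadjusted p below 0.05, and 1 by DESeq2) and 0 for JZL184 against SAP (2 and 2). For JZL184 against control 1 was called (4 and 1), Mt1m, which was higher. Their median log2 fold changes were 0.13, 0.09 and 0.18 in the order SAP against control, JZL184 against SAP and JZL184 against control, beside 0.06, -0.05 and 0.08 over all genes tested. After Mt1m, the smallest p for SAP against control belonged to Slc39a8, the importer ZIP8 (log2 fold change of 0.99, edgeR adjusted p of 0.459), and Slc30a4, the vesicular transporter ZnT4 (0.91, adjusted p of 0.459). For JZL184 against SAP they belonged to Slc39a10 (-2.09, adjusted p of 0.173) and Slc39a3 (0.64, adjusted p of 0.305), both plasma membrane importers. Slc39a10 was at 1.71 and 4.82 FPKM in SAP libraries 1 and 2 and at 0.51 and 0.35 FPKM in SAP libraries 3 and 4. In JZL184 it was at 0.18 to 0.71 FPKM. For JZL184 against control the smallest p after Mt1m belonged to Slc39a8 (1.01, adjusted p of 0.109) and Slc30a7, which carries zinc into the early secretory pathway (0.99, adjusted p of 0.119). Among 16 genes of copper, iron and manganese transport and storage edgeR called 0 in each comparison (4, 4 and 2 at an unadjusted p below 0.05, and 1, 1 and 2 by DESeq2), and their medians were -0.01, -0.21 and 0.02. The shares over all genes tested that stand beside these counts are given above.

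Genes tied to the known inducers of metallothioneins were also measured, some as inducer or receptor and others as responding genes. Both lists were chosen with earlier results of these data known. Their counts beside the shares over all genes are therefore a description and no test of the lists. Of 8 glucocorticoid-responsive genes, 8 had a higher estimate in JZL184 than in SAP, with a median log2 fold change of 1.50. Of these edgeR called 0 (7 at an unadjusted p below 0.05, and 7 by DESeq2). Between JZL184 and control 2 were called higher in JZL184 (7 and 7), with a median of 2.06. The called genes were Fkbp5, a chaperone partner of the glucocorticoid receptor (2.45 ± 0.31, SE, edgeR adjusted p of 0.0156), and Zbtb16 (4.26 ± 0.73, adjusted p of 0.0327). Their summed level was 40.25 to 69.63 FPKM in control, 54.58 to 126.8 FPKM in SAP and 198.1 to 292.3 FPKM in JZL184. Of 10 genes of IL-6 and STAT3 signalling, edgeR called 0 for JZL184 against SAP (7 at an unadjusted p below 0.05, and 6 by DESeq2). Of these genes 9 had a higher estimate in JZL184 than in SAP and 1, Stat3, a lower one (-0.43 ± 0.47, SE). Their median was 1.27. Between JZL184 and control 5 were called higher in JZL184 (9 and 7), with a median of 1.98. These 5 were Il6, its receptor subunit Il6st, the related receptor Osmr, the feedback inhibitor Socs3 (3.01 ± 0.37, adjusted p of 0.0149) and Lcn2 (6.95 ± 0.87, adjusted p of 0.0155). The summed level of the 10 was 137.1 to 140.8 FPKM in control, 151 to 285.3 FPKM in SAP and 412.8 to 953.7 FPKM in JZL184. In SAP against control the medians of the lists were 0.76 and 1.13, and edgeR called 0 of the 18 genes (5 at an unadjusted p below 0.05, and 3 by DESeq2). Of all genes tested, 9.09% had an unadjusted p below 0.05 in SAP against control and DESeq2 called 1.23%. For JZL184 against SAP these shares were 21.3% and 6.98%. For JZL184 against control they were 26.3% and 10.8%, and edgeR called 2.16%. The part of either inducer in the level of the metallothioneins was not tested.

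**Figure D5:**
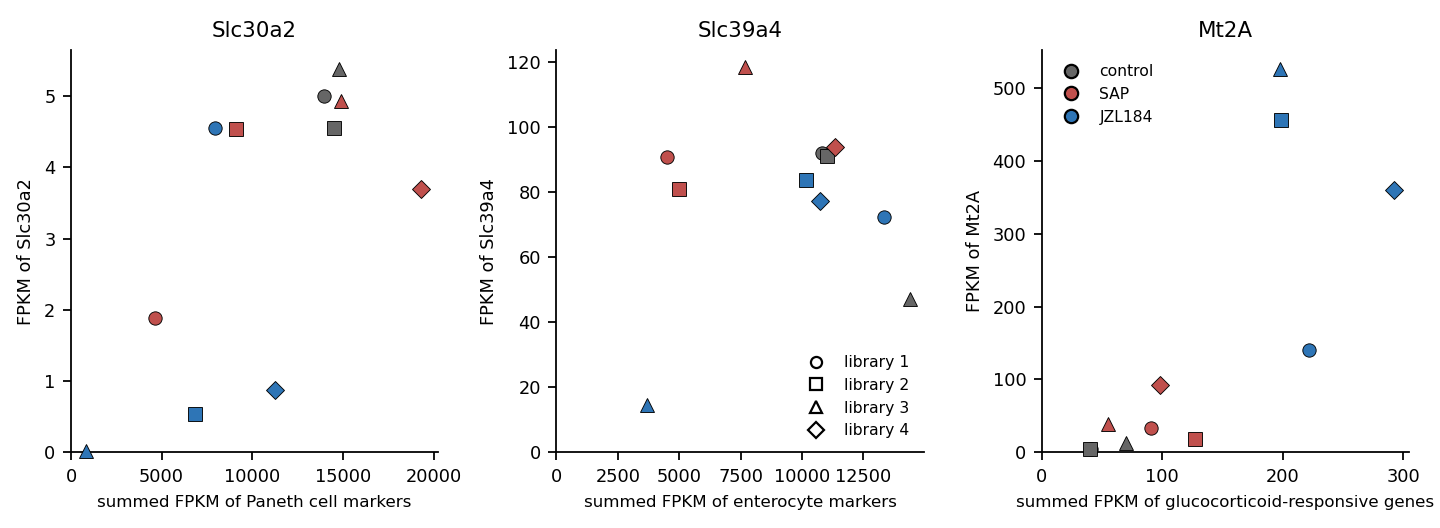
Each point is 1 of the 11 libraries (grey, control; red, SAP; blue, JZL184; marker shape, library number). Slc30a2 is plotted against 8 Paneth cell markers, Slc39a4 against 8 enterocyte markers and Mt2A against 8 glucocorticoid-responsive genes, all in FPKM on linear axes with the markers summed; JZL184 library 3 has the lowest Slc30a2 (0.02 FPKM) and the lowest Paneth sum (849.7 FPKM).

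The genes whose levels followed each member most closely were ranked by Pearson r of log2(FPKM + 1) over the 10 samples among 11092 genes, as a description. The members themselves were left out of these rankings. For Mt1 they were Tnnc2 and Rpp40 (r = 0.980 for both) and LOC120098269 (0.979). For Mt2A they were Mt1m (0.996), Rchy1 (0.978) and Gsta3 (0.974). Between members, r was 0.795 for Mt1 and Mt2A and 0.951 for Mtf1 and Slc30a1. Mtf1 was nearest to Cd55, Gmfb and Itpripl2 (0.976 to 0.967) and Slc30a1 to Usp53, Eps8 and Ubap1 (0.979 to 0.967). Slc39a14 was nearest to Kcnj8, Zfp598 and LOC103691872 (0.969 to 0.959). Slc39a4 was nearest to Muc13, Gpd1 and Mon1a (0.951 to 0.940), Slc39a5 to Tmem147, Acsl5 and Slc27a4 (0.977 to 0.963) and Slc30a2 to LOC100362342, Dlst and Gdpd1 (0.975 to 0.963). The 10 points share groups and libraries, and genes are not independent of each other. Slc30a10 was not ranked, since its mean was below 1 FPKM.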

How the data were processed

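Total RNA of 11 ileum samples was sequenced as stranded mRNA libraries. Per the study's methods, reads were trimmed (FASTX-Toolkit), aligned to mRatBN7.2 with HISAT2 and counted where uniquely aligned, and the sources used here name no counting tool or annotation. The authors deposited read counts per gene and FPKM per gene. From the counts, edgeR 4.0.16 quasi-likelihood tests (TMM, filterByExpr) were run for each pair of groups on all genes. Their p-values were adjusted by Benjamini-Hochberg, with calls as defined in the results. The procedure was also run on simulated data, and how it performed there is not given here. DESeq2 1.42.0, limma-voom 3.58.1 with sample quality weights in every use, and other settings were alternatives. FPKM were compared by two-sided exact permutation tests of the means. Control libraries 1 and 2 were summed (FPKM averaged). Replicates are separate samples in the labels, and p-values measure the spread between them. The members and gene lists were chosen with earlier results of these data known. Named were all 9 members, the 3 other zinc genes with the smallest p in each comparison, and the 3 genes outside the members that were most like each member with a mean of at least 1 FPKM. Replicate numbers did not pair the samples. Promoter sequences are from RefSeq.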

Additional observations from a re-analysis of the deposited data

Results flagged for a closer look

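In 18 groups of 4 libraries (9 genes in SAP and in JZL184), 2 libraries stood far from the rest of their group, by a gap that exceeded the share 0.829 of the group's range; chance alone marks about 1 in 20 such groups. Mt1 in SAP library 4 was the highest of its group at 360.92 FPKM, with a gap of 0.875 of the range. Slc39a4 in JZL184 library 3 was the lowest at 14.46 FPKM, with a gap of 0.832.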

How the results depend on the processing

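Of 441 alternative log2 fold changes of the 9 genes, 397 kept their direction and their side of the threshold, 18 newly passed it, 7 no longer passed it and 19 changed sign; the cause was not tested.

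For SAP against control 0 genes were called in all, but DESeq2 called 208, limma-voom 14, the test without a filter on low counts 14, the joint test of all 3 groups 4, separate controls 33 (DESeq2 1434), and the test without SAP libraries 1 and 2 74; leaving out each sample gave 0 to 3. Of the 9 genes, DESeq2 with separate controls called 2 (Mt2A and Slc39a14). Without SAP libraries 1 and 2, Mt1 was at 0.086 and Slc30a1 at -0.32 (log2 fold change). For JZL184 against SAP (0 called) DESeq2 called 1283, limma-voom 699, no filter 27, the joint test 207 and length offsets 35, and leaving out each sample gave 0 to 655, the highest without JZL184 library 1. Of the 9 genes, DESeq2 and limma-voom called 2, the joint test and length offsets 1 (Mt2A), and leaving out each sample 0 to 2. For JZL184 against control (343 called) DESeq2 called 1899, limma-voom 2906, no filter 929, separate controls 2800 (DESeq2 3482), and leaving out each sample 0 to 1867; of the 9 genes limma-voom called 4 and leaving out each sample gave 0 to 3.

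Sign changes for JZL184 against SAP were Slc39a5 at 0.029 and Slc30a1 at 0.48 with limma-voom, and Slc30a1 at 1.18 without SAP libraries 1 and 2; leaving out each sample gave -0.60 to 0.27 for Slc30a1, -0.21 to 0.31 for Mtf1 and -0.29 to 0.48 for Slc39a5. For JZL184 against control, Slc30a10 was at -0.060 with length offsets, and leaving out each sample gave -0.63 to 0.45 for Slc39a4 and -0.11 to 0.53 for Slc30a10; for SAP against control it gave -0.16 to 0.94 for Slc39a4.

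Samples of the same replicate number did not deviate together (correlations of -0.449 to 0.123). With the replicate number as a block, 1 gene was called for SAP against control and 1430 for JZL184 against control, beside 265 and 1693 without the block in the same samples, and 0 for JZL184 against SAP, where Slc30a1 was at 0.0072. The 3 most alike genes changed in 4 of 16 alternatives.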
